A study of Mus musculus with 9 samples.

Results

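The transcripts of 10 factors that shorten the poly(A) tail of mRNA or act on mRNA after it were examined in growing mouse oocytes with 3 sex chromosome complements. The factors were Btg4, Cnot1, Cnot6l, Cnot7, Cnot8, Pan2, Pan3, Dcp1a, Dcp2 and Zfp36l2. They were taken by name as a functional group and are 10 of the 28052 genes with a row in the count matrix. All 10 passed the filter on low counts, which left 10993 genes to be tested.

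RNA was sequenced from 9 pools of oocytes, 3 each from XX, XO and XY females at 18 days post partum, to ask how the sex chromosomes bear on the transcriptome during growth. Each pool held 30 oocytes, 10 of 50–55 µm and 20 of 55–60 µm in diameter, and was prepared by Smart-seq3, in which a unique molecular identifier (UMI) at the 5′ end lets each captured transcript be counted once. Pools are named here by genotype and number (XO1 is pool 1 of XO oocytes). The labels give C57BL/6 (B6) as the strain of all of them. XY females carry the Y chromosome of B6.YTIR males, which were mated with B6 females, and the XX females were their littermates. XO females came from another cross, of males that carry the Paf mutation, on a C3H/HeSnJ background backcrossed to B6, and they have the wild-type X chromosome of their mother. The absence of a sex chromosome and the origin of the XO females therefore cannot be told apart. How many females gave the oocytes of a pool is not given in the sources used here.

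Most mRNAs that a growing oocyte stores end in a poly(A) tail, and shortening of that tail can open an mRNA to decay. The CCR4-NOT complex, built on the scaffold CNOT1, carries the deadenylases CNOT7 or CNOT8 and CNOT6 or CNOT6L, whereas PAN2 and its partner PAN3 form a separate deadenylase. BTG4 recruits CCR4-NOT to maternal mRNA and is known for its part in clearing these mRNAs when the oocyte matures. ZFP36L2 brings CCR4-NOT to mRNAs with AU-rich elements, and DCP2, with its activator DCP1, removes the 5′ cap of deadenylated mRNA.

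The 250 bases before the transcription start are shown for Btg4, Pan2 and Dcp1a, the factors whose levels differed most between genotypes or between pools. They are the coding strand in GRCm38.p6, as RefSeq's annotation places the start, read 5′ to 3′, with matches to any of the motifs searched in capitals.
Btg4: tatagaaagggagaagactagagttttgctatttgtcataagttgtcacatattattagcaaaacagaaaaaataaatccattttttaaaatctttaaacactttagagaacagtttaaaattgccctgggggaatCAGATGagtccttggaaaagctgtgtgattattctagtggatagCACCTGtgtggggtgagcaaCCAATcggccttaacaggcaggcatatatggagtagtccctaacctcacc
Pan2: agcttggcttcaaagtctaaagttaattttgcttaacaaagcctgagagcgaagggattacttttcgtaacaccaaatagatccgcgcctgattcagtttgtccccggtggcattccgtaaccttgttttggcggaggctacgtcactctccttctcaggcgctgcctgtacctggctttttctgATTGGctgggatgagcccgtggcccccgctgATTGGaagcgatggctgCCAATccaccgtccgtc
Dcp1a: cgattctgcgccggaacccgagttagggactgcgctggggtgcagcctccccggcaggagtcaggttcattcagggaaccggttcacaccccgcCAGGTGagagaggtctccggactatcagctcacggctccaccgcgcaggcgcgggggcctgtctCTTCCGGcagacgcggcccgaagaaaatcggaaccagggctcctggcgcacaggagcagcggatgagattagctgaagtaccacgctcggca
RefSeq's table matched 6 of the 10 factors (not Cnot1, Cnot7, Dcp2 and Zfp36l2). The windows lie at chr9:51115751-51116000, chr10:128303085-128303334 and chr14:30479315-30479564, all on the plus strand. In the Gencode annotation Btg4 spans chr9:51060901-51119875, so that this start lies inside it, Pan2 spans chr10:128303335-128321358 and Dcp1a chr14:30479535-30527063. None of the 10 genes is on the X or Y chromosome. The motifs searched on both strands were the NOBOX element TAATTG, the E-box CANNTG, the TATA box TATAAA, the CCAAT box CCAAT, the GC box GGGCGG and the ETS core CCGGAAG. The Btg4 window held E-boxes at positions -114 and -70 and a CCAAT box at -50, where a position is that of the first base of the match and -1 is the base before the start. Its only 1 CpG and its GC content of 38.0% set it apart from those of Pan2, with 14 CpG and 52.4% GC, and Dcp1a, with 23 CpG and 65.2% GC. The Pan2 window held 3 CCAAT boxes, at -65, -34 and -17, and no E-box. The Dcp1a window held an E-box at -156 and an ETS core at -92. Among 32851 promoter windows of the same length, 66.2% held an E-box, 33.8% a CCAAT box and 6.91% an ETS core, and the median window had 6 CpG and 52.4% GC. These matches are descriptions of the sequence and no binding was measured.

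Depth was similar in all pools, with 2130145 to 3157338 UMIs on genes. Levels are given as normalized CPM, UMIs per 1000000 gene UMIs divided by a factor from the ERCC spike-in RNAs, which the authors deposited. On this scale the sum over all genes is 1000000 divided by the factor of the pool. It was higher in the XO pools (1181293 to 1422594) than in the XX (802037 to 888533) or XY pools (864867 to 990044). Most genes were therefore lower in XX than in XO pools. The spike-ins took 0.356% to 0.654% of UMIs in XO and 0.204% to 0.617% in XX pools. With the total of spike-in UMIs as the scale, the median log2 fold change of XX against XO over all tested genes was 0.42, the opposite direction. The sums are thus not read as RNA per oocyte. All 10 oocyte markers were detected in every pool, with a summed level of 15780 to 26860 normalized CPM. Of 12 granulosa cell markers 9 were detected and summed to 50.4 to 94.8, mostly through Nr5a2, Cyp19a1 and Kitl, while the granulosa gene Inha had UMIs in only 1 pool. In a pool, fewer cells of a type and less RNA per cell cannot be told apart. XO1 and XY1 stood apart from the rest in the share of UMIs on mitochondrial transcripts, 13.1% and 10.8% against 2.65% to 6.02% in the other 7 pools. Values without these pools are given for all 10 factors and for the other decay genes described from the exosome, SKI and PARN classes, as an alternative chosen after seeing the data.

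Btg4 was the single factor of the 10 whose transcripts differed between genotypes by the test used. Its level was 178.8, 175.8 and 123.7 normalized CPM in XX1, XX2 and XX3, 268.2, 269.9 and 491.7 in XO1, XO2 and XO3, and 199.4, 176.1 and 176.0 in XY1, XY2 and XY3. All 3 XO pools were above all XX and XY pools, and the XX and XY pools overlapped. The means were 159 ± 30.98 for XX, 343 ± 129 for XO and 184 ± 13.5 for XY oocytes (SD, n = 3). By edgeR's quasi-likelihood test, the log2 fold change of XX against XO was -1.11 (SE 0.34, unadjusted p = 0.00858), and that of XY against XO was -0.90 (SE 0.33, unadjusted p = 0.0234). After Benjamini-Hochberg adjustment in edgeR over all tested genes these became 0.204 and 0.485. XX and XY oocytes differed by -0.21 (SE 0.33, edgeR unadjusted p = 0.551). The comparisons with XO share the same 3 XO pools.

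The call for Btg4 varied with how pools were scaled to each other. With factors by TMM, a trimmed mean of ratios between pools, taken from the genes and not the spike-ins, its log2 fold change was -0.63 in XX against XO (edgeR unadjusted p = 0.0556) and -0.57 in XY against XO (edgeR unadjusted p = 0.0768), and neither passed. With the total of gene UMIs as the scale they were -0.51 (edgeR unadjusted p = 0.0994) and -0.44 (edgeR unadjusted p = 0.15), again without a call. With the total of spike-in UMIs as the scale they were -0.35 (edgeR unadjusted p = 0.606) and -0.77 (edgeR unadjusted p = 0.264), also without a call. With DESeq2 size factors in edgeR both passed, at -0.72 (unadjusted p = 0.039) and -0.68 (unadjusted p = 0.0477). Over all tested genes the median log2 fold change of XX against XO was -0.46 with spike-in factors and -0.03 with TMM on genes. XO3 carried much of the difference from XY. Without it the log2 fold change of XY against XO was -0.55 (edgeR unadjusted p = 0.11), whereas XX against XO still passed at -0.75 (edgeR unadjusted p = 0.0374). Without XY2 or XY3 the difference from XY stayed at -0.87 and its edgeR unadjusted p was 0.0682 or 0.0656. As a share of gene UMIs, a scale free of the spike-ins, Btg4 had 224.6, 228.4 and 345.6 UMIs per 1000000 in the XO pools, 201.2, 205.1 and 154.2 in the XX pools and 201.4, 203.6 and 184.6 in the XY pools. The XO pools remained above the others on this scale, XO1 and XO2 by small margins.

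**Figure D1:**
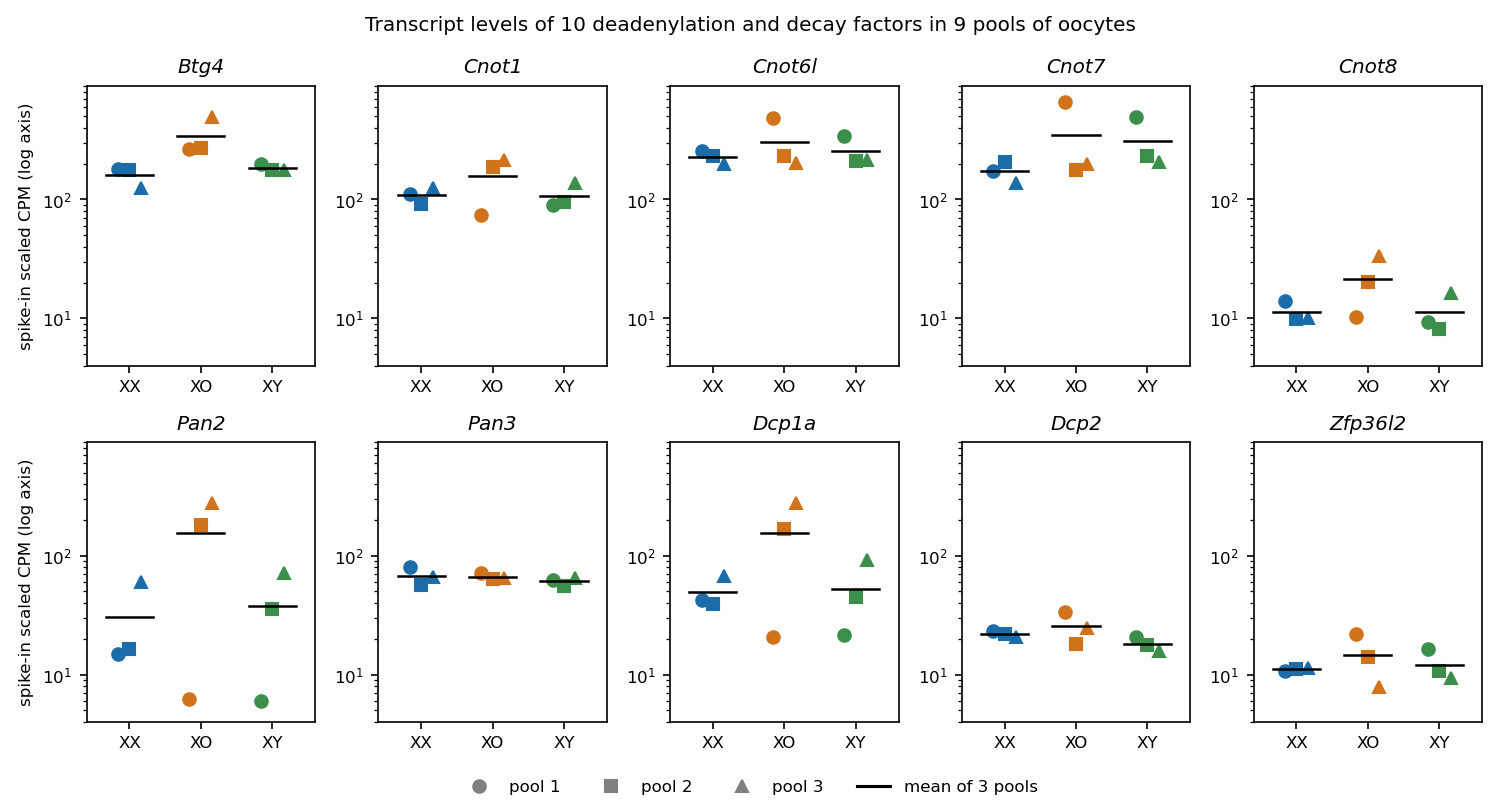
Level of each of the 10 factors in normalized CPM (spike-in scaled, log axis) in the 9 pools, with circles, squares and triangles for pools 1, 2 and 3 of a genotype and a line at the mean. The 3 XO pools of Btg4, from 268.2 to 491.7, lie above all XX and XY pools, while Pan2 and Dcp1a spread widely within each genotype.

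Read over the group, 1 of the 10 factors passed an unadjusted edgeR p of 0.05 in XX against XO, beside 18.1% of all tested genes (16.7% lower in XX). None of the 10 passed in XX against XY, where 5.8% of all genes did, and 1 passed in XY against XO, beside 9.93% (8.24% lower in XY). In both comparisons with XO the factor was Btg4, with XO the higher. At a Benjamini-Hochberg adjusted p of 0.05 in edgeR no factor passed in any comparison, where 0%, 0.0819% and 0.0364% of all tested genes did. The median log2 fold change of the 10 was -0.73 in XX against XO, -0.10 in XX against XY and -0.53 in XY against XO, beside -0.46, -0.19 and -0.30 over all tested genes. With TMM on genes these medians of the 10 were -0.24, 0.06 and -0.23. Groups did not overlap in XX against XO for 1 factor, again Btg4, and for 13.6% of all tested genes with XX lower. In XY against XO it was likewise Btg4 alone, beside 6.34% of all tested genes with XY lower.

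**Figure D2:**
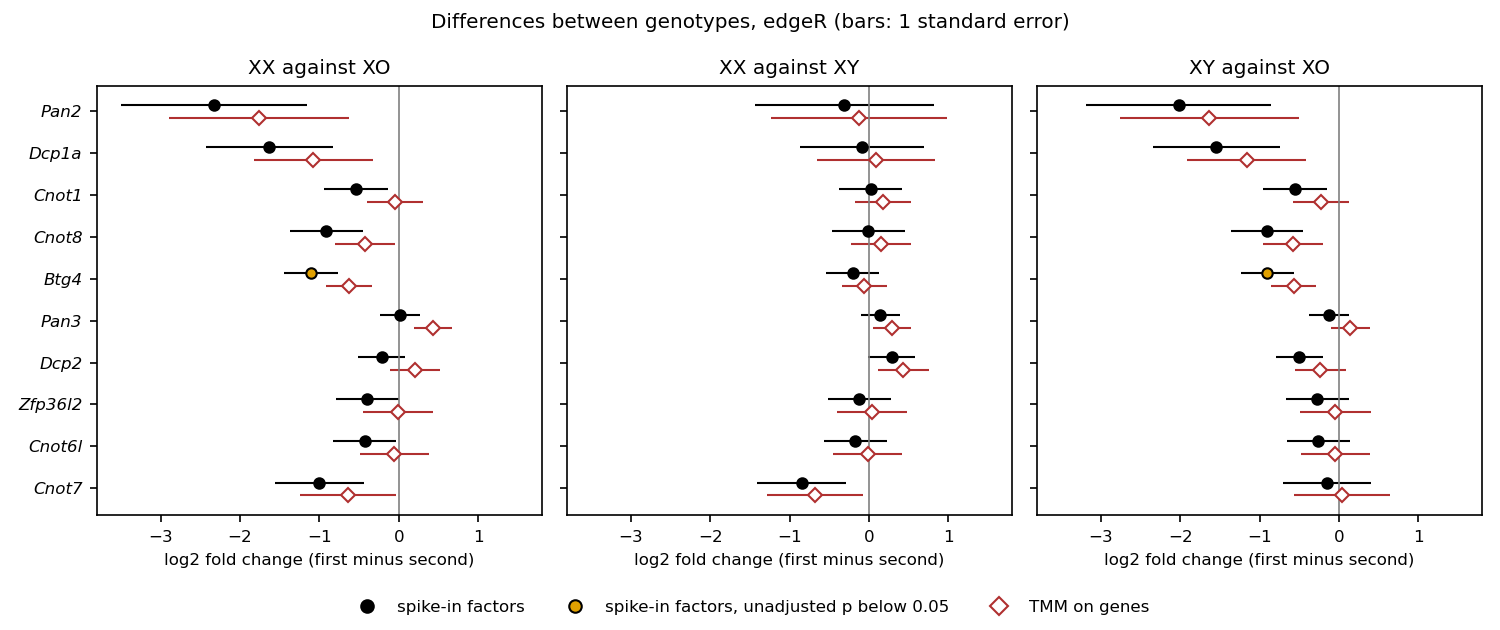
Log2 fold changes (first genotype minus second) of the 10 factors in the 3 comparisons by edgeR, with bars of 1 standard error, for spike-in factors (circles, filled yellow where the unadjusted p was below 0.05) and for TMM factors on genes (diamonds). Only Btg4 with spike-in factors is marked, at -1.11 in XX against XO and -0.90 in XY against XO, and the values with TMM on genes lie to the right in every comparison.

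Within CCR4-NOT, Cnot1 and Cnot8 were highest in other pools than Cnot7 and Cnot6l. Cnot1, the scaffold, stood at 112.2, 92.4 and 124.0 normalized CPM in the XX pools, 74.6, 187.1 and 215.1 in the XO pools and 90.6, 95.1 and 137.9 in the XY pools. XO2 and XO3 were the highest and XO1 the lowest of all, so the genotypes overlapped. Its log2 fold change was -0.54 in XX against XO (SE 0.40, edgeR unadjusted p = 0.212) and 0.02 in XX against XY (SE 0.40, edgeR unadjusted p = 0.958).

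Cnot7, a deadenylase subunit that BTG4 binds, was at 174.5, 208.3 and 136.8 normalized CPM in the XX pools, at 664.8, 176.8 and 197.6 in the XO pools and at 494.1, 233.4 and 208.3 in the XY pools. XO1 and XY1 were far above every other pool, and the remaining XO and XY pools lay within or close to the XX range. Its log2 fold changes of -1.0 in XX against XO (SE 0.56) and -0.85 in XX against XY (SE 0.56) had unadjusted edgeR p of 0.108 and 0.163. Without XO1 and XY1 they were -0.11 and -0.35 (edgeR unadjusted p = 0.654 and 0.173).

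Cnot6l, the other catalytic partner in the complex, showed the same pools on top, at 483.1 in XO1 and 343.5 in XY1. The other 7 pools lay between 197.4 and 253.3 normalized CPM, with no separation by genotype. Its log2 fold changes were -0.43 in XX against XO, -0.17 in XX against XY and -0.26 in XY against XO, with a lowest edgeR unadjusted p of 0.303. Without XO1 and XY1 they were 0.06, 0.10 and -0.04.

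Cnot8, the paralog of Cnot7, went with Cnot1 rather than with Cnot7. It had 13.9, 9.80 and 10.1 normalized CPM in the XX pools, 10.4, 20.2 and 33.3 in the XO pools and 9.30, 8.14 and 16.3 in the XY pools, from 20 to 59 UMIs a pool. XO2 and XO3 were the highest of the 9. The log2 fold change was -0.91 both in XX against XO (SE 0.46, edgeR unadjusted p = 0.0742) and in XY against XO (SE 0.46, edgeR unadjusted p = 0.0765).

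The paired genes of the PAN deadenylase behaved unlike each other. Pan2, the catalytic subunit, was at 14.96, 16.5 and 60.6 normalized CPM in XX1, XX2 and XX3, at 6.21, 183.0 and 275.5 in XO1, XO2 and XO3 and at 6.04, 35.8 and 71.8 in XY1, XY2 and XY3. The lowest values were in XO1 and XY1 and the highest in XO2 and XO3, a 44.3-fold range within the XO genotype, 11.9-fold within XY and 4.05-fold within XX. These came from 12 and 13 UMIs in XO1 and XY1 and from 354 and 488 in XO2 and XO3. Pan2 had a pooled SD within genotypes of 2.04 on the scale of log2(normalized CPM + 1), and 0.728% of the tested genes had a larger one. The median over all tested genes was 0.53.

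Pan3, which holds PAN2 on the poly(A) tail, had one of the narrowest spreads. Its levels ran from 56.4 to 80.1 normalized CPM in XX, from 64.1 to 72.0 in XO and from 55.3 to 65.5 in XY pools. Its pooled SD of 0.17 was exceeded by 97.6% of the tested genes. The log2 fold changes of Pan3 were 0.02 in XX against XO, 0.14 in XX against XY and -0.13 in XY against XO, with an SE of 0.25 in each (edgeR unadjusted p of 0.951, 0.579 and 0.622). With TMM on genes the first was 0.43, and the last turned positive at 0.14. Without XO1 and XY1 the 3 values were 0.07, 0.16 and -0.09.

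Against this spread, the mean differences of Pan2 did not pass the test. Its log2 fold change was -2.33 in XX against XO (SE 1.18, edgeR unadjusted p = 0.0768), -0.31 in XX against XY (SE 1.13, edgeR unadjusted p = 0.79) and -2.02 in XY against XO (SE 1.16, edgeR unadjusted p = 0.114). Without XO1 the edgeR adjusted p was 0.0199 at a log2 fold change of -2.89 in XX against XO and 0.0462 at -2.58 in XY against XO. In XX against XO it was also called without XX3, at -3.30 (edgeR unadjusted p = 0.0482, adjusted 0.348), and without a filter on low counts, at -2.33 (edgeR unadjusted p = 1.3e-06, adjusted 0.000112). Without the filter the counts and the fold change of Pan2 were those of the main fit, and only the p fell. The share of all genes called in that fit is not given, and its p is not read as added support. DESeq2 (-2.33, unadjusted p = 0.0338, adjusted 0.193) and sva covariates in edgeR (-0.85, unadjusted p = 0.0162, adjusted 0.183) called Pan2 as well.

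Among the decapping factors Dcp1a varied like Pan2. Dcp1a, an activator of the decapping enzyme, was at 42.4, 39.2 and 67.6 normalized CPM in the XX pools, at 20.7, 166.5 and 275.5 in the XO pools and at 21.4, 44.9 and 91.8 in the XY pools. XO1 and XY1 were again the lowest of the 9 and XO2 and XO3 the highest. Its pooled SD was 1.29, with 6.66% of the tested genes above it. The log2 fold changes of -1.63 in XX against XO (SE 0.80, edgeR unadjusted p = 0.0694) and -1.54 in XY against XO (SE 0.80, edgeR unadjusted p = 0.0822) did not pass, and without XO1 they were -2.15 and -2.06 with edgeR adjusted p of 0.011 and 0.0229. In the deposited log2 matrix with batch effects regressed out, the direction of Dcp1a was the opposite, at 0.59 in XX against XO (limma unadjusted p = 0.00292), and Pan2 and Cnot1 turned as well, to 0.74 (limma unadjusted p = 0.0554) and 0.56 (limma unadjusted p = 0.000467). The median over all tested genes turned too, to 0.28 in this matrix from -0.46 with spike-in factors, so the turn is not particular to these factors. These limma p can be too small, because the fit did not count the batch effects already removed.

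Dcp2, the decapping enzyme itself, ranged only from 20.7 to 23.2 normalized CPM in XX, from 18.1 to 33.7 in XO and from 15.7 to 20.9 in XY pools. The 3 genotypes overlapped, with log2 fold changes of -0.22, 0.29 and -0.50 (SE 0.29, 0.29 and 0.30, lowest edgeR unadjusted p 0.124, in XY against XO). Without XO1 and XY1 they were 0.04, 0.40 and -0.36. Zfp36l2 was at 10.7, 11.2 and 11.3 normalized CPM in the XX pools, 21.7, 13.96 and 7.90 in the XO pools and 16.3, 10.7 and 9.36 in the XY pools. The XX pools of Zfp36l2 were close to each other, whereas XO1 was the highest and XO3 the lowest of the 9. Its log2 fold changes were -0.40, -0.12 and -0.27, with a lowest edgeR unadjusted p of 0.344, and without XO1 and XY1 they were 0.01, 0.14 and -0.13.

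**Figure D3:**
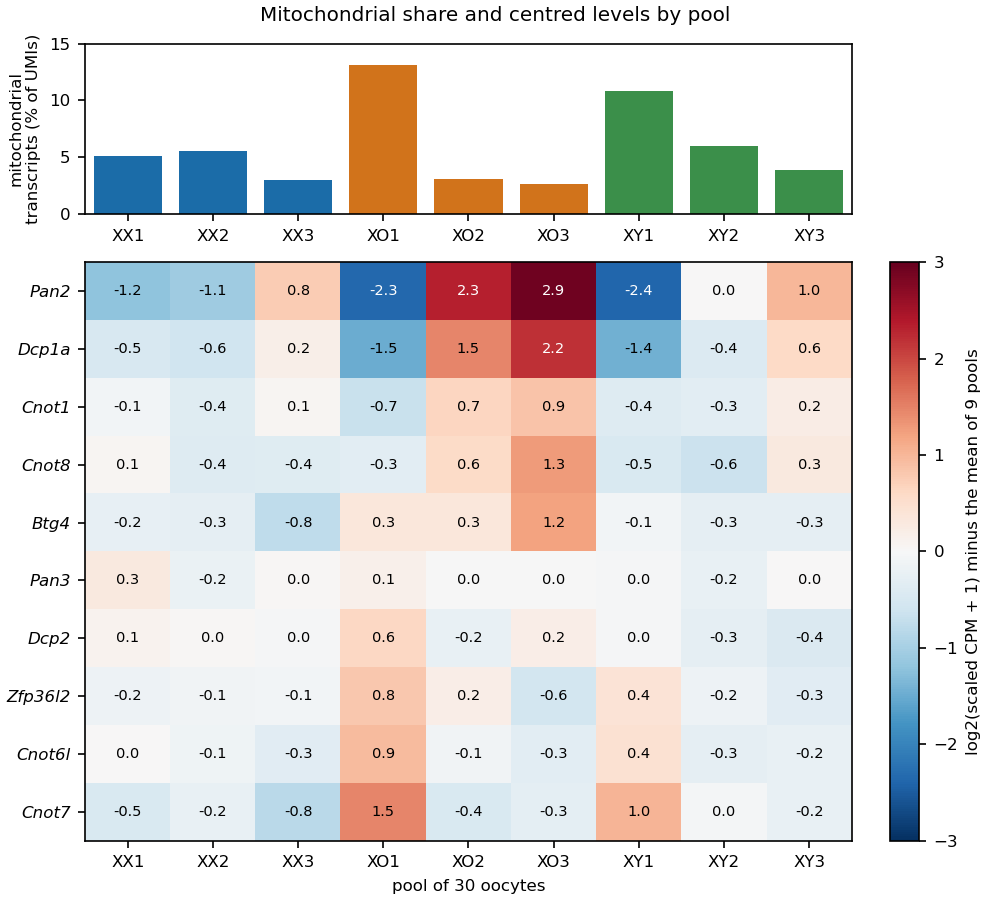
Share of UMIs on mitochondrial transcripts in each pool (bars, percent) above the level of each factor as log2(normalized CPM + 1) minus its mean over the 9 pools (colour and numbers). XO1 and XY1, with 13.1% and 10.8% mitochondrial UMIs, have the lowest Pan2 and Dcp1a and the highest Cnot7 and Cnot6l.

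Seen across pools, the factors therefore fell on opposite sides in the same libraries. In XO1 and XY1 there were 0.00935 and 0.0122 UMIs of Pan2 for each UMI of Cnot7, against 1.04 and 1.39 in XO2 and XO3, a ratio chosen after the values were seen. In XX pools it was 0.0857, 0.079 and 0.443, and in XY2 and XY3 0.153 and 0.345. Pan2, Dcp1a and Cnot1 were higher in pool 3 than in pool 1 of all 3 genotypes, and Dcp2, Cnot7 and Cnot6l were lower in pool 3 than in pool 1 of all 3. Over all tested genes 33.5% were higher and 30.1% lower in this way, beside 30% and 30% of the 10 factors, and the labels do not say what a pool number marks. Of the 10 oocyte markers 8 were lower in both XO1 and XY1 than in both XO2 and XO3, as Pan2 was, and 2, Oosp1 and Ddx4, were higher. Zp3, a zona pellucida gene, was at 12.4 and 21.8 normalized CPM in XO1 and XY1 and at 340.7 and 570.2 in XO2 and XO3. In the XX pools, XY2 and XY3 it lay between, from 49.0 to 169.3. Bmp15, 1 of the 8, was low in all XY pools, at 366.7, 322.0 and 422.0 in XY1, XY2 and XY3. Oosp1, an oocyte-secreted protein gene, was highest in XO1 and XY1, at 9137 and 5572 normalized CPM. Of 7 markers of blood and endothelium 2 were detected, Pecam1 and Cdh5, and their sum was 16.05 and 26.96 normalized CPM in XO1 and XY1 and 109.6 and 132.1 in XO2 and XO3. Nearly all of it came from Pecam1, an endothelial adhesion protein gene, at 14.5 and 21.8 against 109.1 and 131.5. Cdh5 went the other way, at 1.553 and 5.113 in XO1 and XY1 against 0.517 and 0.565 in XO2 and XO3. The sum is therefore not read as a measure of endothelial cells. Pecam1 in XX2, at 18.6, was below XY1. Of 7 markers of theca and stroma 4 were detected, with sums of 0.305 to 3.92 over the 9 pools. The part of the mitochondrial share and of all these markers in the levels of the factors was not tested.

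With XO1 and XY1 left out, 5 of the 10 factors passed an unadjusted edgeR p of 0.05 in XX against XO, all lower in XX, where 41.7% of all genes then passed. They were Pan2, Cnot8, Dcp1a, Btg4 and Cnot1, and each also passed at the edgeR adjusted p of 0.05, as 32.4% of all genes did. The same 5 passed in XY against XO, beside 27.8% of all genes, and 3 of them passed there after edgeR's adjustment, Dcp1a (adjusted p = 0.0257), Pan2 (0.0463) and Btg4 (0.0491), beside 10.5% of all genes. None passed unadjusted in XX against XY, beside 15.7%. Log2 fold changes of XX against XO in this fit were -2.89 for Pan2, -2.15 for Dcp1a, -1.26 for Btg4, -1.25 for Cnot8 and -0.88 for Cnot1. The XO genotype had only 2 pools in this fit, XO2 and XO3. Both lay above all XX pools in the oocyte markers Zp1, Zp3, Nobox, Gdf9 and Kit, but not in Zp2, Bmp15, Figla, Ddx4 and Oosp1. Zp1 was at 758.9 and 2166 normalized CPM in XO2 and XO3, against 47.97 to 112.4 in XX pools. The paper described XX1, XO2 and XY1 as less similar to the other replicates of their genotype. Which XO pools are typical was not tested.

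Same-numbered XY and XO pools deviated from their genotype means together, with correlations across tested genes of 0.83, 0.278 and 0.773, and a block for the pool number was therefore fitted as well. This pairing was taken from the tested data themselves, and pools of unlike number were not compared. XO1 and XY1 also have the high mitochondrial share in common. Calls with the block are therefore not separate support for a difference. With this replicate block 3 of the 10 factors were called in XY against XO, beside 16.6% of all genes. They were Btg4 at -0.88 (edgeR unadjusted p = 0.0279, adjusted 0.256), Pan2 at -1.81 (edgeR unadjusted p = 0.0282, adjusted 0.256) and Dcp1a at -1.37 (edgeR unadjusted p = 0.0349, adjusted 0.269), all lower in XY. XO pools held more Pan2 than the XY pools of the same number in numbers 2 and 3, whereas in number 1 the values of 6.21 and 6.04 normalized CPM came from 12 and 13 UMIs, and as a share of gene UMIs XO1 was the lower, at 5.203 against 6.103 per 1000000.

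Ratios of paralogs or partners within a pool do not depend on the scaling between pools. The log2 ratio of Dcp1a to Dcp1b UMIs, the paralogs that encode DCP1, was 0.76, 1.21 and 1.24 in the XX pools, 1.95, 2.39 and 3.42 in the XO pools and 0.13, 0.15 and 1.14 in the XY pools. Every XO pool, XO1 included, was above every XX and XY pool. The difference was -1.52 in XX against XO and -2.11 in XY against XO, each with p = 0.1 by a two-sided exact permutation test, the smallest that 3 against 3 pools allow. In XO1 the ratio rested on 40 UMIs of Dcp1a and 10 of Dcp1b. Adjusted over the 24 tests of ratios by Benjamini-Hochberg, both exact permutation p were 0.84.

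The other ratios did not separate the genotypes. That of Pan2 to Pan3 ran from -3.48 in XO1 to 2.09 in XO3 and from -3.33 in XY1 to 0.13 in XY3. Cnot7 to Cnot8 was 5.97 and 5.70 in XO1 and XY1 and between 2.56 and 4.81 in the other pools. Cnot6l to Cnot6, the other pair of paralogs in the complex, kept between 2.87 and 3.79 in all pools. Btg4 to Cnot7 was -1.31 in both XO1 and XY1 and between -0.41 and 1.31 elsewhere. Zfp36l1 had no more than 2 UMIs in any pool, within the 3 UMIs that a count of 0 allows, so nothing is read from its ratio to Zfp36l2. Exact permutation p of these comparisons were 0.2 or higher.

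**Figure D4:**
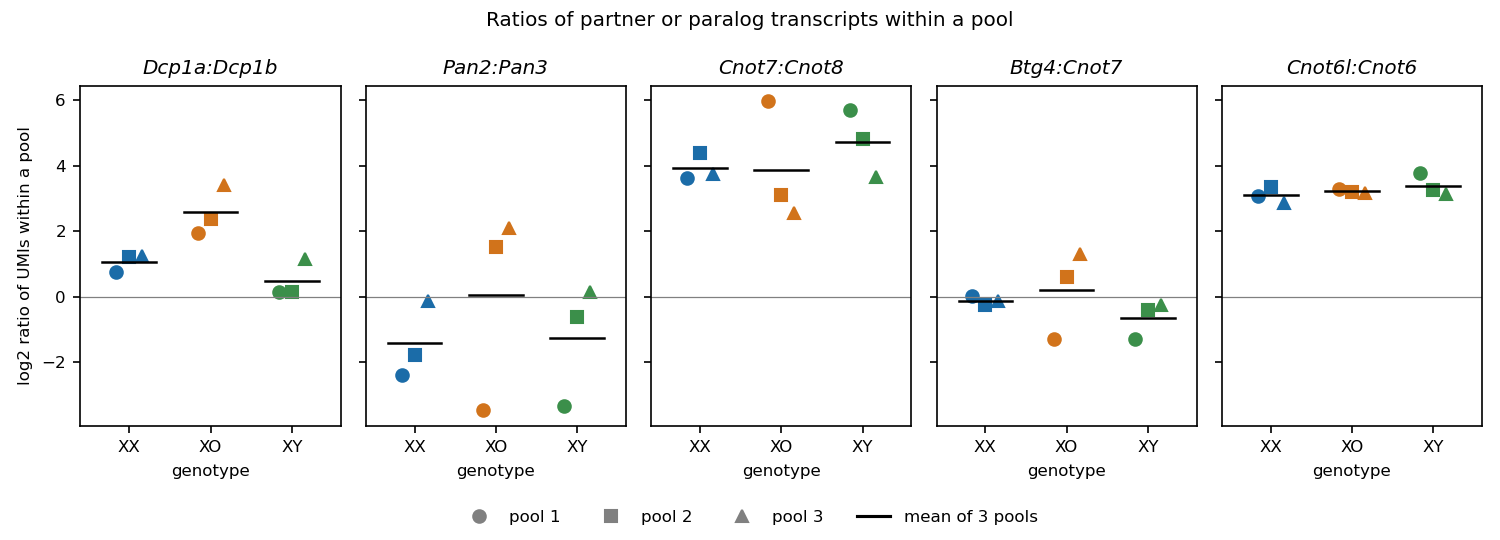
Log2 ratio of UMIs of a factor to those of its paralog or partner within each pool, by genotype, with a line at the mean of 3 pools. The ratio of Dcp1a to Dcp1b is higher in the 3 XO pools, from 1.95 to 3.42, than in the others, while Pan2 to Pan3 and Btg4 to Cnot7 are lowest in pool 1 of XO and XY.

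Other genes of deadenylation and decay were taken from a list of 68 symbols, of which 65 matched and 52 were tested. In XX against XO 10 of the 52 passed an unadjusted edgeR p of 0.05, all lower in XX, which is 19.2% beside the 18.1% of all genes. None passed in XX against XY, and 2 passed in XY against XO, both lower in XY, or 3.85% beside 9.93% of all genes. None passed an adjusted p of 0.05 in edgeR. The replicate block gave 9 of 52 in XY against XO. The median log2 fold change of the 52 in XX against XO was -0.51 with spike-in factors and -0.10 with TMM on genes, where 4 were lower and 2, Cnot2 and Lsm1, higher, beside 11.9% of all genes called in either direction.

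The RNA exosome and its SKI cofactor, which degrade deadenylated mRNA from the 3′ end, held 5 of the 10, among 11 tested, beside the 18.1% of all genes. With TMM on genes 3 of the 11 passed, and with gene UMI totals as the scale 0 of 11 passed the unadjusted edgeR p, beside 12.8% of all genes. Exosc9, an exosome core subunit, was at 23.9, 22.4 and 22.2 normalized CPM in the XX pools, 34.7, 37.7 and 91.5 in the XO pools and 28.8, 19.5 and 25.1 in the XY pools. All XO pools were above all others, as for Btg4, and XO3 was again the highest. Its log2 fold change was -1.26 in XX against XO (SE 0.39, edgeR unadjusted p = 0.0101, adjusted 0.204) and -1.16 in XY against XO (SE 0.39, edgeR unadjusted p = 0.0152, adjusted 0.485).

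Skiv2l, the SKI helicase, gave -1.78 (edgeR unadjusted p = 0.0199) and -1.82 (edgeR unadjusted p = 0.0183) in the same comparisons from 5 to 43 UMIs a pool. Its XX values reached 4.63 normalized CPM and XO1 lay at 4.66, so the genotypes were hardly apart outside XO2 and XO3. Exosc7, Exosc2 and Dis3l, the remaining 3 of this class and named after their values were seen, had log2 fold changes of -3.30, -1.87 and -0.73 in XX against XO. Exosc7 and Exosc2 were lowest in XY1 or XO1 and highest in XO3, at 1.55 and 7.77 normalized CPM in XO1 and 89.8 and 104.4 in XO3. The values of Exosc7 came from 8 and 10 UMIs in XX1 and XX2, 3 in XO1 and 1 in XY1. Without XO1 and XY1 the log2 fold changes of XX against XO were -1.50 for Exosc9, -2.17 for Skiv2l, -3.85 for Exosc7, -2.38 for Exosc2 and -0.73 for Dis3l.

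Pnldc1, a poly(A)-specific ribonuclease of the PARN family, was at 13.5, 14.01 and 14.01 normalized CPM in the XX pools, 13.5, 38.3 and 74.0 in the XO pools and 32.1, 20.2 and 27.8 in the XY pools. XO1 lay at the XX level while XO2 and XO3 were the highest. Its log2 fold change in XX against XO was -1.59 (SE 0.52, edgeR unadjusted p = 0.0124, adjusted 0.204), and without XO1 and XY1 it was -2.01. Of the other classes, 2 of 5 BTG and TOB adaptors were lower in XX than in XO, Btg4 and Btg1, beside the 18.1% of all genes, and 0 of 5 passed the unadjusted edgeR p with TMM on genes or with gene UMI totals. With spike-in factors, all pools and no replicate block, none of the 4 poly(A) binding protein genes tested passed in any comparison. Nor did any of the 4 AU-rich element binding protein genes tested. With the replicate block Pabpc1 passed in XX against XO at -1.15 (edgeR unadjusted p = 0.0292, adjusted 0.172). Pabpc1l passed with it in XY against XO at -0.78 (edgeR unadjusted p = 0.0477, adjusted 0.296). Without XO1 and XY1, and with no block, Pabpn1 and Pabpc1 passed the unadjusted edgeR p in XX against XO, both lower in XX. Pabpn1 also passed in XX against XY, again lower in XX. Neither passed after adjustment in that fit. These poly(A) binding protein genes were named after their values were seen.

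**Figure D5:**
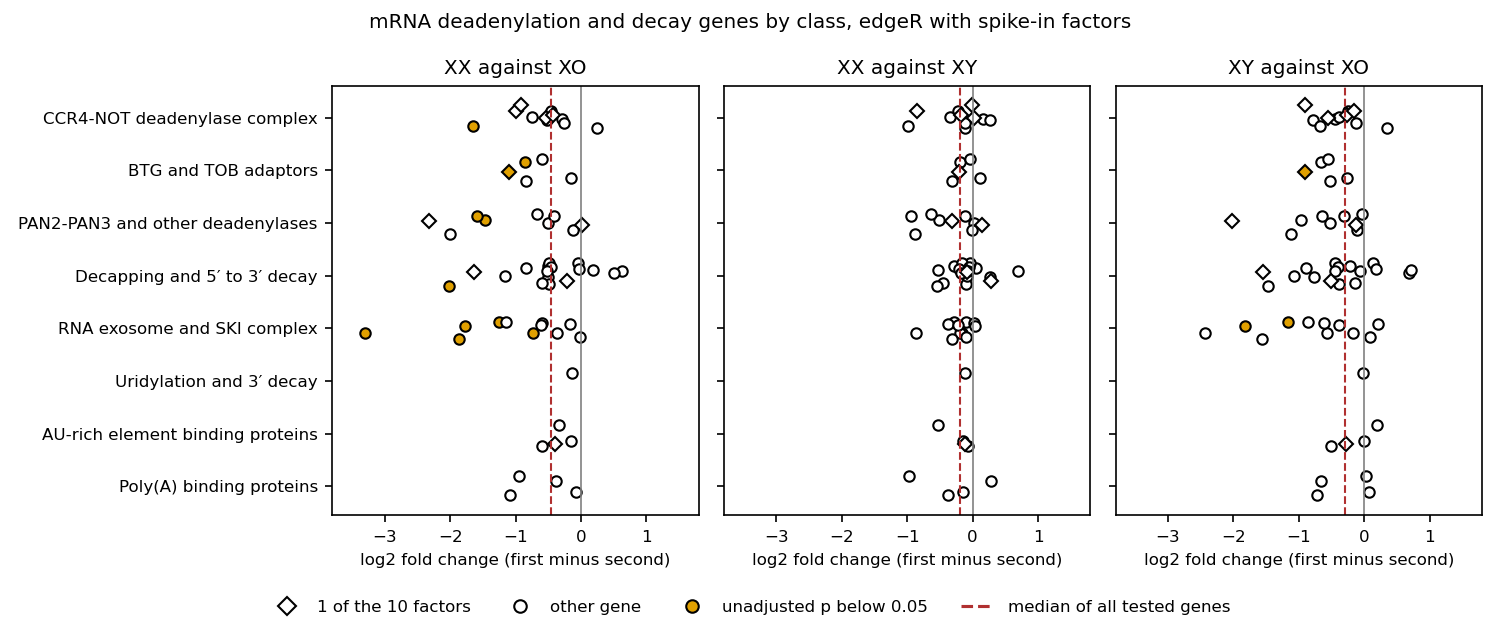
Log2 fold changes (first genotype minus second) of the tested deadenylation and decay genes by class in the 3 comparisons, edgeR with spike-in factors, with diamonds for the 10 factors, yellow for an unadjusted p below 0.05 and a dashed line at the median of all tested genes. In XX against XO the yellow points lie at or below -0.73, and none is marked in XX against XY.

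For each factor the tested gene of the most similar profile was found by the root mean square difference (RMS) of log2(normalized CPM + 1), centred on its mean, over the 9 pools. Btg4 was nearest to Agap1 (RMS 0.0966), Cnot1 to the oocyte receptor gene Kit (0.0749), Cnot6l to Kpna3 (0.0613) and Cnot7 to Bbs7 (0.0949). Pan2 was nearest to Rnaseh2a (0.127), and Dcp1a to Wdr5 (0.135). The nearest genes were Slc6a6 for Cnot8 (0.12), Gxylt1 for Pan3 (0.101), Cep70 for Dcp2 (0.0954) and Ywhab for Zfp36l2 (0.125). Among the factors themselves, Cnot7 had Cnot6l as its nearest (0.369) and Pan2 had Dcp1a (0.69).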

How the data were processed

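The 10 factors and the lists of other decay genes were chosen with earlier results of these data known. The authors aligned paired-end reads to GRCm38 with Hisat2 and deposited counts of 5′ UMIs per gene. A second deposited matrix holds a signal that the authors call normalized CPM. When checked, it equalled UMIs per 1000000 gene UMIs divided by TMM factors of 79 ERCC spike-ins (largest relative difference 5.01e-15). The last holds log2 values that the authors scaled to the spike-ins and regressed against surrogate variables. The ERCC rows and 1 entry that names no gene stayed out of library sizes and tests. The XO column without a number was taken as pool 1.

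Here counts were tested with edgeR 4.0.16 (quasi-likelihood test, spike-in factors, filterByExpr on low counts, 9 pools in 1 fit, two-sided), after the script had been tested on simulated data. The simulated spread between pools (dispersion 0.05) was below the common dispersion of 0.201 in these data. That run therefore checks the code and not the error rate here. A gene was called at an unadjusted p of 0.05, the threshold of the study, with Benjamini-Hochberg values over 10993 genes beside it. Alternatives used DESeq2 1.42.0, limma 3.58.1, sva 3.50.0, other factors, no filter, a replicate block and fewer pools. The limma fit held genotype alone on values already regressed against surrogate variables, so its p and calls can be too liberal. UMI ratios (0.5 added) were compared by exact permutation. Genes lie at GRCm38 coordinates of Gencode vM21.

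The genes named are the 10 factors, for each comparison up to 3 other decay genes of lowest edgeR p per direction, the partners in ratios and the nearest profiles. Exceptions are stated. Pool numbers pair XY and XO pools by the correlation of their deviations alone. For XX and XO it was 0.468, -0.447 and 0.679, and for XX and XY 0.435, -0.0595 and 0.726. These correlations were taken as no ground for pairing the XX pools, although those of number 3 exceeded the 0.278 of XY and XO in number 2. The replicate block nevertheless covered the XX pools too, so its XX comparisons treated pools of the same number as paired. The methods describe the 3 pools of a genotype as biological replicates, each counted as 1 sample.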

Additional observations from a re-analysis of the deposited data

How the results depend on the processing

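Of 888 values under alternatives, 671 kept their direction and side of the threshold, 80 newly passed, 30 no longer passed and 107 turned sign, 4 of the latter with an unadjusted p below 0.05 on either side. Btg4 kept its direction in XX against XO and in XY against XO under every alternative run, with its call lost in XX against XO under TMM on genes, gene UMI totals, spike-in totals and sva covariates. Its call in XY against XO was lost under the first 3 of these, without a filter, with limma on the batch-regressed values and without XO3, XY2 or XY3. Pan3 passed instead under gene UMI totals, higher in XX (log2 fold change 0.58). The causes were not tested. Exact permutation tests of ratios between 3 and 3 pools cannot go below 0.1, while those of XX against the other 6 pools could reach 0.0119 and gave 0.345 to 0.893. Low UMI counts limit Cnot8, Skiv2l, Zfp36l2 and Exosc7, and Pan2 in XO1 and XY1. In what follows XX-XO, XX-XY and XY-XO stand for the 3 comparisons, the first genotype minus the second. For most of these fits the share of all tested genes that passed is not given here. Where it is given for XX-XO, it ran from 11.9% to 41.7%. Counts of calls without that share are therefore not read as results about the factors or the other decay genes. With TMM on genes factors called were 0 in XX-XO and 0 in XY-XO and other genes called were 6 in XX-XO, 1 in XX-XY and 4 in XY-XO, and signs turned to 0.20 for Dcp2 (XX-XO), 0.15 for Cnot8, 0.086 for Dcp1a and 0.036 for Zfp36l2 (XX-XY), 0.036 for Cnot7 and 0.14 for Pan3 (XY-XO). With gene UMI totals as the scale factors called were 0 in XY-XO and other genes called were 3 in XX-XO and 1 in XX-XY, and signs turned to 0.063 for Cnot1, 0.10 for Cnot6l, 0.35 for Dcp2 and 0.14 for Zfp36l2 (XX-XO), 0.13 for Cnot8, 0.062 for Dcp1a and 0.025 for Zfp36l2 (XX-XY), 0.13 for Cnot6l, 0.22 for Cnot7, 0.30 for Pan3 and 0.12 for Zfp36l2 (XY-XO). With spike-in totals as the scale factors called were 0 in XX-XO and 0 in XY-XO and other genes called were 0 in XX-XO and 0 in XY-XO, and signs turned to 0.33 for Cnot1, 0.52 for Cnot6l, 0.73 for Dcp2 and 0.58 for Zfp36l2 (XX-XO), 0.42 for Btg4, 0.60 for Cnot6l, 0.50 for Cnot8, 0.49 for Pan2, 0.51 for Dcp1a and 0.73 for Zfp36l2 (XX-XY), 0.023 for Cnot7 and 0.078 for Pan3 (XY-XO). With DESeq2 size factors in edgeR other genes called were 5 in XX-XO and 1 in XX-XY, and signs turned to 0.10 for Dcp2 (XX-XO), 0.19 for Cnot8, 0.13 for Dcp1a and 0.049 for Zfp36l2 (XX-XY), 0.030 for Pan3 (XY-XO). Without a filter on low counts factors called were 4 in XX-XO and 2 in XY-XO and other genes called were 17 in XX-XO, 1 in XX-XY and 12 in XY-XO. With the replicate block factors called were 3 in XY-XO and other genes called were 9 in XY-XO, and signs turned to 0.080 for Cnot8, 0.12 for Pan2 and 0.22 for Dcp1a (XX-XY). With sva covariates factors called were 2 in XX-XO, 1 in XX-XY and 3 in XY-XO and other genes called were 3 in XX-XO, 2 in XX-XY and 10 in XY-XO, and signs turned to 0.087 for Cnot1 and 0.29 for Cnot8 (XX-XO), 0.12 for Btg4, 0.46 for Cnot8 and 0.21 for Dcp1a (XX-XY). With DESeq2 factors called were 3 in XX-XO. With limma on the batch-regressed values factors called were 5 in XX-XO, 2 in XX-XY and 2 in XY-XO and other genes called were 17 in XX-XO, 2 in XX-XY and 21 in XY-XO, and signs turned to 0.56 for Cnot1, 0.19 for Cnot8, 0.74 for Pan2, 0.59 for Dcp1a and 0.19 for Dcp2 (XX-XO), 0.0092 for Cnot6l, 0.18 for Cnot8, 0.066 for Pan2, 0.23 for Dcp1a and 0.058 for Zfp36l2 (XX-XY), 0.40 for Cnot1, 0.012 for Cnot8, 0.68 for Pan2, 0.24 for Pan3 and 0.36 for Dcp1a (XY-XO). With XO1 and XY1 left out, an alternative chosen after seeing the data, factors called were 5 in XX-XO and 5 in XY-XO and other genes called were 25 in XX-XO, 9 in XX-XY and 14 in XY-XO, and signs turned to 0.060 for Cnot6l, 0.036 for Dcp2 and 0.0093 for Zfp36l2 (XX-XO), -0.089 for Cnot1, 0.10 for Cnot6l and 0.14 for Zfp36l2 (XX-XY), 0.24 for Cnot7 (XY-XO). Leaving out 1 pool at a time gave 1 to 5 factors in XX-XO, 2 to 22 other genes in XX-XO, 0 to 1 factors in XX-XY, 0 to 2 other genes in XX-XY, 0 to 5 factors in XY-XO and 1 to 17 other genes in XY-XO. Counts moved past 1.5 times without XX3 (2 factors in XX-XO and 1 other genes in XX-XY), XO1 (5 factors in XX-XO, 22 other genes in XX-XO, 1 factors in XX-XY, 2 other genes in XX-XY, 5 factors in XY-XO and 17 other genes in XY-XO), XX1 (4 other genes in XX-XO), XX2 (4 other genes in XX-XO), XO3 (2 other genes in XX-XO, 1 other genes in XX-XY, 0 factors in XY-XO and 1 other genes in XY-XO), XO2 (2 factors in XY-XO), XY2 (0 factors in XY-XO and 1 other genes in XY-XO) and XY3 (2 factors in XY-XO and 10 other genes in XY-XO). Log2 fold changes of XX-XO that turned sign then ran from -0.66 to 0.060 for Cnot6l, -0.13 to 0.13 for Pan3, -0.41 to 0.035 for Dcp2 and -0.69 to 0.010 for Zfp36l2. Log2 fold changes of XX-XY that turned sign then ran from -0.089 to 0.24 for Cnot1, -0.30 to 0.10 for Cnot6l, -0.20 to 0.37 for Cnot8, -1.27 to 0.54 for Pan2, -0.46 to 0.58 for Dcp1a and -0.28 to 0.14 for Zfp36l2. Log2 fold changes of XY-XO that turned sign then ran from -0.53 to 0.23 for Cnot6l, -0.65 to 0.74 for Cnot7 and -0.57 to 0.12 for Zfp36l2. Differences of log2 ratios that turned sign ran from -0.62 to 1.08 for Cnot7:Cnot8 in XX-XO, -0.24 to 0.00077 for Cnot6l:Cnot6 in XX-XO, -0.023 to 0.30 for Cnot6l:Cnot6 in XY-XO, -0.10 to 1.37 for Zfp36l2:Zfp36l1 in XX-XO, -0.58 to 0.84 for Zfp36l2:Zfp36l1 in XX-XY, -0.34 to 1.199 for Zfp36l2:Zfp36l1 in XY-XO, -1.19 to 0.54 for Pan2:Pan3 in XX-XY, -1.08 to 0.23 for Btg4:Cnot7 in XX-XO and -0.11 to 0.41 for Btg4:Cnot7 in XX against the rest. Over the 10 factors and the 52 other genes the replicate block changed no other count of calls by over 1.5 times. By class, factors included, it moved the calls in XY-XO from 2 to 5 for the exosome and SKI, from 0 to 3 for decapping, from 0 to 2 for PAN2-PAN3 and other deadenylases and from 0 to 1 for poly(A) binding proteins, and in XX-XO from 1 to 0 for CCR4-NOT, from 1 to 2 for decapping and from 0 to 1 for poly(A) binding proteins.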
